A study of Sorghum bicolor with 15 samples.

Results

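The 100 most abundant transcripts of sorghum roots were taken from a count table of 34129 genes, of which 28088 had at least 1 count. Members were chosen by their measured level. Each count was divided by its library's total and multiplied by 1000000 to give CPM, the means of the 4 groups were averaged for each gene, and the 100 genes with the highest average were kept. Levels and shares are therefore given below as a description with no test. The averages ran from 27639.6 CPM down to 1073 CPM. At the limit, Sobic.001G418100 (1073.3 CPM) and Sobic.001G405900 (1072.9 CPM) were inside, and Sobic.002G353900 (1066 CPM) and Sobic.001G018900 (1065 CPM) were outside.

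The study compared whole roots of 2 sorghum (Sorghum bicolor) varieties, Shanqui Red (SQR), which is susceptible to the parasitic weed Striga hermonthica, and SRN39, which is resistant and carries a deletion that spans the gene LGS1. Plants of both varieties were harvested when 28 and 35 days old, so the groups were SQR at 28 d (4 libraries), SQR at 35 d (3 libraries), SRN39 at 28 d (4 libraries) and SRN39 at 35 d (4 libraries). All plants started in sterilized field soil and moved to sand in a randomized greenhouse layout, received a diluted Hoagland solution low in phosphate and had their washed whole root systems frozen shortly after lights on. Whether a library holds 1 plant or several was not stated. The varieties differ across the genome, so the effect of the deletion and of the remaining genetic background cannot be told apart. In whole roots, fewer cells of a type and less of a transcript per cell cannot be told apart either.

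In any tissue a small number of genes supplies a large part of the messenger RNA. In plant roots such transcripts commonly encode parts of the translation machinery, water channels, metal-binding proteins, enzymes of central metabolism, and proteins of cell walls and defence. A 3′ library reads the end of each transcript, so a long transcript does not gain reads from its length and levels were compared between genes without division by length. The gene identifiers carried no names in the count table, none matched the RefSeq gene table, and of the study's annotation tables only a part with 413 genes was searched here, which held 1 member. The members are therefore given by identifier, function classes could not be counted, and the tissue label could not be checked against marker genes.

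Library totals ran from 6369710 to 17304929 counts, and the lowest count of any member in any library was 2217. The replicate libraries of a group differed beyond sampling noise, by a chi-square per degree of freedom of at least 10.8. All 100 members passed the filter on low counts. SQR 35 d replicate 2 stood apart. Its chi-square per degree of freedom against its mates was 106.7 and 109.4, where no other pair within a group exceeded 37.0. In that library 57 members were below both of its group mates and 25 above both. That count alone does not single it out, with 56 below all mates in SRN39 28 d replicate 3 and 49 in SRN39 35 d replicate 4. In SQR 35 d replicate 2, 32 members had their lowest level of the 15 libraries, and the median member differed from its mates by -0.35 on the log2 scale. The SD of log2 CPM of the median member was 0.52 in SQR at 35 d and 0.33 without that library, against 0.24 in SQR at 28 d, 0.21 in SRN39 at 28 d and 0.23 in SRN39 at 35 d. Results that rest on SQR at 35 d are given with and without replicate 2 where the call changed.

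The 100 genes held between 22.1% and 34.7% of all counts of a library. In SQR at 28 d their share was 32.9%, 30.4%, 34.0% and 32.2% (32.4% ± 1.54, SD, n = 4), and in SRN39 at 28 d it was 34.7%, 34.4%, 30.7% and 32.6% (33.1% ± 1.88, SD, n = 4). In SRN39 at 35 d the share was 30.1%, 28.3%, 28.2% and 26.7% (28.3% ± 1.39, SD, n = 4). Every SRN39 library at 35 d thus lay below every SRN39 library at 28 d. In SQR at 35 d the share was 30.4%, 22.1% and 32.7% (28.4% ± 5.59, SD, n = 3), and the low value was that of replicate 2. Without it the mean was 31.6%, and both remaining libraries lay within the range of SQR at 28 d.

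**Figure D1:**
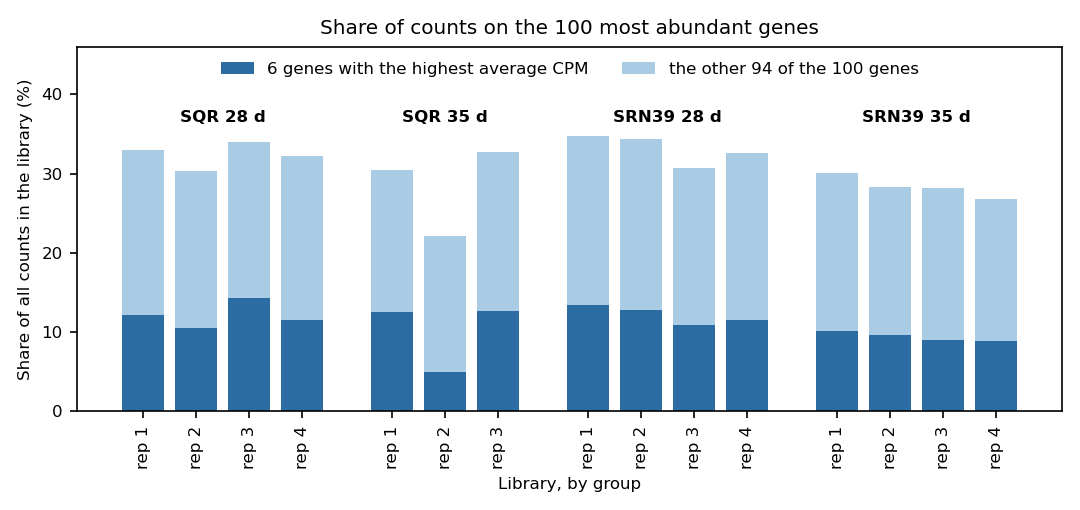
Bars show, for each of the 15 libraries, the percentage of all counts on the 6 genes with the highest average CPM (dark) and on the other 94 of the 100 genes (light). The 4 SRN39 libraries at 35 d reach 26.7% to 30.1%, below the 30.7% to 34.7% of SRN39 at 28 d, and SQR 35 d replicate 2 is the lowest at 22.1%.

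A few genes dominated. The first 6 members each averaged over 10000 CPM and together held 12.1%, 10.5%, 14.3% and 11.5% of the counts in SQR at 28 d and 13.3%, 12.7%, 10.9% and 11.5% in SRN39 at 28 d. In SQR at 35 d they held 12.5%, 4.85% and 12.6%, and in SRN39 at 35 d 10.1%, 9.54%, 8.94% and 8.77%. The SRN39 libraries at 35 d were again all below those at 28 d, and SQR 35 d replicate 2 had less than any other library. By contrast, 60 members averaged under 2000 CPM, and the members ranked 51 to 100 held 5.72% to 7.09% of the counts across the 15 libraries. Reaching 50% of all counts took 296 to 419 genes in the libraries at 28 d, 400 to 488 in SRN39 at 35 d, and 439, 629 and 359 in SQR at 35 d, with the 629 in replicate 2.

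The 100 highest genes of the 4 groups overlapped in part. Members were chosen on the average of the 4 group means. The number of members among each group's highest genes follows partly from that choice. Of the 100 members, 89 were among the 100 highest genes of SQR at 28 d, 84 of SQR at 35 d, 87 of SRN39 at 28 d and 76 of SRN39 at 35 d, and 61 were among the 100 highest of every group. A total of 153 genes reached the 100 highest of at least 1 group. Group means differed by less than 2-fold between the highest and the lowest group for 68 members and by 4-fold or more for 1. Sobic.002G244901 was the most abundant gene in 9 libraries, Sobic.004G159733 in 3, Sobic.008G185900 in 2, and Sobic.002G349400 in SQR 35 d replicate 2, where it took 1.21% of the counts.

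By the chromosome number in their identifiers, 21 members were on chromosome 1 and 20 on chromosome 4, which carry 16.8% and 11.1% of the genes in the table. Chromosome 3 had 7 members with 13.7% of the genes, and chromosome 5 had 3 with 7.14%. These chromosomes were picked with their values in view, and the percentages include genes without counts. In 3 cases a pair of members lay next to each other or 1 gene apart. Sobic.004G049900 and Sobic.004G050000 are adjacent identifiers, ranked 53 and 44, and Sobic.001G107100 and Sobic.001G107200, ranked 18 and 84, have 1 gene between them. Across the 15 libraries, which share their totals, log2 CPM of the first pair had a Pearson r of 0.71 and that of the second 0.93, given as a description. The r was 0.15 for the third pair, Sobic.004G259200 and Sobic.004G259366, ranked 22 and 65. Near-identical copies can lose reads in counting, and whether these neighbours are such copies was not tested.

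Between 28 and 35 days, most of the called abundant transcripts of SRN39 fell. Differences between groups were tested with edgeR's quasi-likelihood test on all 18473 genes that passed the filter, after TMM scaling, with p-values adjusted over those genes, and a member was called at an adjusted p under 0.05. Log2 fold changes are from that fit and can differ from the ratio of the CPM values, which are relative to library totals. The rule that chose the members averages the group means and compares no groups, but it is not neutral to direction. An average of CPM weighs most the groups where a gene is highest. In SRN39, 87 members were among the 100 highest genes at 28 d and 76 at 35 d. How far the choice adds to the falls was not tested. The 100 highest genes of each library itself held a mean share of 33.7% in SRN39 at 28 d and 29.5% at 35 d. In SRN39, 52 of the 100 members were called between 35 d and 28 d, 8 higher and 44 lower at 35 d, where 30.9% of all genes tested were called, 15.7% higher and 15.2% lower. The members called lower, 44 of 100, stood above the share of the table, and those called higher, 8 of 100, below it. The median member had a log2 fold change of -0.59, against 0.04 for all genes tested. Members also had a somewhat smaller standard error (median 0.23 against 0.26), and its part in the number of calls was not tested.

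The split of these calls depended on the scaling. With library totals in place of TMM it was 19 higher and 34 lower (background 25.3% and 8.57%), with limma-voom after quantile normalization 22 higher and 28 lower (background 15.7% and 15%), and with DESeq2 11 higher and 50 lower (background 16.3% and 17.0%). Totals moved the median of all genes tested to a log2 change of 0.31. Relative to that median, the median member fell by 0.63 on the log2 scale under TMM, totals and DESeq2 scaling alike. These scalings use 1 factor for each library and move all genes nearly alike, so their agreement is no test of the fall. Quantile normalization, which gives genes of equal rank equal values in every library, gave a fall of 0.23. Of the 52 called members, 35 were called in each of the 15 fits that left out 1 library, with no matching share of all genes given. In 66 of the 100 members the 4 libraries of one age did not overlap those of the other, as in 38.5% of all genes tested.

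The first 6 genes carried the larger part of the net change in share. Over the 100 members the mean share fell by 4.77 percentage points from 28 d to 35 d in SRN39, the sum of 3.91 points gained in 37 members and -8.68 points in the 63 others. The first 6 members changed by -2.77 points together and the ranks 7 to 100 by -2.0 points, and the largest losses were in Sobic.004G159733 (1.54 points) and Sobic.008G185900 (1.18 points). The largest gain was in Sobic.005G228700, by 0.787 points. Among the 10 most abundant members, 6 were called and all 6 were lower at 35 d. The ranks 11 to 50 had 19 calls, 16 of them lower, and the ranks 51 to 100 had 27, 22 of them lower.

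Sobic.004G159733, the third most abundant transcript, had the largest fall. Its level was 24372, 12168, 38185 and 24208 CPM in SQR at 28 d, 14072, 8316 and 20765 CPM in SQR at 35 d, 30554, 19819.9, 22413 and 21057 CPM in SRN39 at 28 d and 9352, 8675, 6125 and 8095 CPM in SRN39 at 35 d. The SRN39 libraries at 35 d (highest 9352 CPM) were below every library of SRN39 at 28 d (lowest 19819.9 CPM). Its log2 fold change with age in SRN39 was -1.82 (SE 0.37, adjusted p = 0.002), and in SQR it was -0.97 (SE 0.40, adjusted p = 0.16), or -1.46 (adjusted p = 0.037) without SQR 35 d replicate 3. At 35 d the genotypes differed by -0.88 (SE 0.39, adjusted p = 0.088), and by -1.20 (adjusted p = 0.018) without SQR 35 d replicate 2.

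Sobic.008G185900, the second most abundant, fell with age in SRN39 as well. It stood at 21525, 26926, 30546 and 21894 CPM in SQR at 28 d, 41964, 10854 and 34758 CPM in SQR at 35 d, 27504, 23881, 21704 and 22342 CPM in SRN39 at 28 d and 12602, 12448, 10423 and 12782 CPM in SRN39 at 35 d. SRN39 had about equal levels in its 4 libraries at 35 d, all below those at 28 d, whereas SQR at 35 d held both the highest library of all and one of the lowest, replicate 2. The log2 fold change with age was -1.27 (SE 0.33, adjusted p = 0.0094) in SRN39 and 0.04 (SE 0.35, adjusted p = 0.96) in SQR. The genotypes differed at 35 d by -1.31 (SE 0.35, adjusted p = 0.0082), although SQR 35 d replicate 2 lay within the range of SRN39, and with only the 2 groups compared in the fit the adjusted p was 0.054. The age response (35 d minus 28 d) of SRN39 minus that of SQR was -1.31 (SE 0.48, adjusted p = 0.11), and without SQR 35 d replicate 2 it was -1.73 (adjusted p = 0.0034). With quantile normalization the fall in SRN39 was -0.45 (adjusted p = 0.092).

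Sobic.002G244901, the most abundant transcript, was called in no comparison. It was measured at 35312, 29405, 32610.3 and 33536 CPM in SQR at 28 d, 25780.1, 4918 and 24983 CPM in SQR at 35 d, 27434, 33149, 22233 and 27852 CPM in SRN39 at 28 d and 37161, 29203, 35901 and 24197 CPM in SRN39 at 35 d. All libraries lay between 22233 and 37161 CPM except SQR 35 d replicate 2. Its age difference in SRN39 was -0.08 (SE 0.40, adjusted p = 0.9), and its genotype difference at 35 d was 0.74 (SE 0.43, adjusted p = 0.2), or 1.13 (adjusted p = 0.023) with quantile normalization. Sobic.005G228700, the fifth, went the other way from its neighbours in rank. It was at 9246, 11832, 11997 and 10162 CPM in SQR at 28 d, 13190.1, 12075 and 11551 CPM in SQR at 35 d, 13061, 12618, 9462 and 11052 CPM in SRN39 at 28 d and 16086, 22195, 16233 and 23162 CPM in SRN39 at 35 d. The SRN39 libraries at 35 d were the 4 highest of all 15. The genotype difference at 35 d was 0.66 (SE 0.22, adjusted p = 0.027), which was no longer called without SQR 35 d replicate 2 (0.57, adjusted p = 0.063), SRN39 35 d replicate 2 (0.60, adjusted p = 0.072) or SRN39 35 d replicate 4 (0.62, adjusted p = 0.056). The age difference in SRN39 was 0.45 (SE 0.20, adjusted p = 0.099), and 0.75 (adjusted p = 0.0034) when scaled on library totals.

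**Figure D2:**
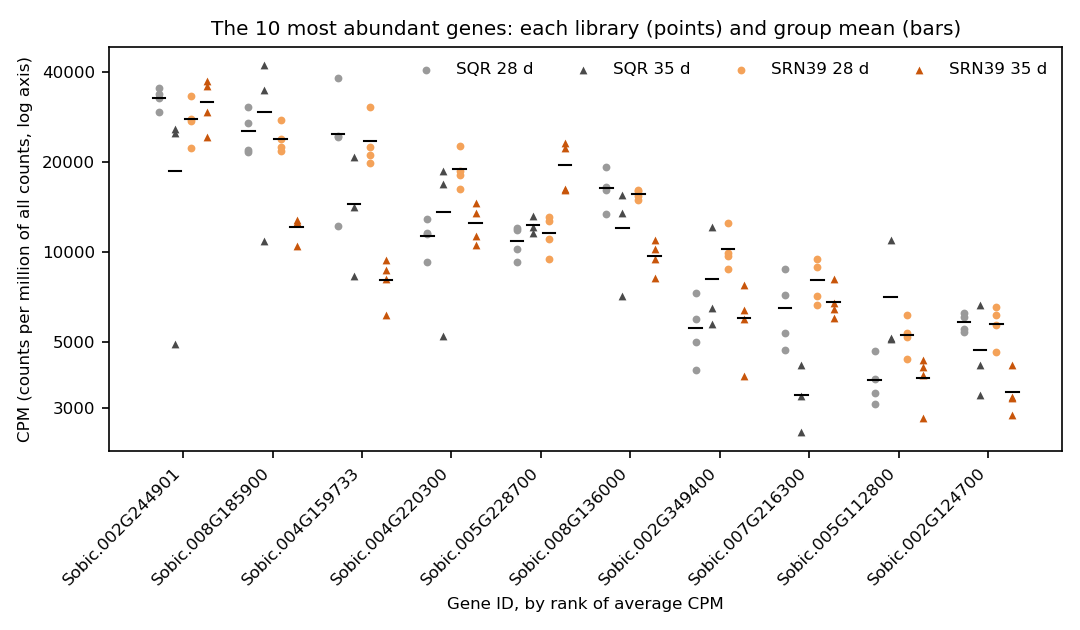
Points show the CPM (log axis) of each library for the 10 most abundant genes, by group, and black lines the group means. For Sobic.004G159733 the SRN39 libraries at 35 d lie at 6125 to 9352 CPM and those at 28 d at 19819.9 to 30554 CPM.

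Of the remaining genes among the first 10, Sobic.004G220300 was higher in SRN39 than in SQR at 28 d in every library, with 18661, 22539.9, 18057 and 16207 CPM against 11516, 11457, 12865 and 9202 CPM. The difference of 0.82 (SE 0.33, adjusted p = 0.11) was not called with all libraries, and was 0.82 (adjusted p = 0.0066) without SQR 35 d replicate 2, a library of neither group, since the fit shares 1 estimate of spread. Its levels at 35 d were 16778, 5228 and 18653 CPM in SQR and 14494, 13419.7, 10530.0 and 11314 CPM in SRN39, so every SRN39 library lay below those of 28 d and SQR replicate 2 lay far under its mates. The age difference in SRN39 was -0.88 (SE 0.33, adjusted p = 0.056), or -0.88 without SQR 35 d replicate 2 (adjusted p = 0.0033) and without SQR 35 d replicate 3 (adjusted p = 0.036). The age response of SRN39 minus that of SQR was -0.98 (SE 0.49, adjusted p = 0.23), or -1.40 (adjusted p = 0.012) without SQR 35 d replicate 2. Sobic.008G136000 fell with age in SRN39, from 15974, 15317, 14897 and 16088 CPM to 10943, 9443, 10177 and 8159 CPM, with no overlap. That fold change was -0.95 (SE 0.27, adjusted p = 0.015), while the genotype difference was 0.00 (SE 0.27, adjusted p = 1) at 28 d and -0.33 (SE 0.29, adjusted p = 0.4) at 35 d, or -0.65 (adjusted p = 0.042) without SQR 35 d replicate 2. Under quantile normalization the age difference in SRN39 was 0.00 (adjusted p = 1).

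Sobic.007G216300, the eighth, was higher in SRN39 than in SQR at 35 d, at 8079, 5985, 6408 and 6735 CPM against 3281, 2486 and 4189 CPM. The libraries did not overlap, and the difference was 1.02 (SE 0.30, adjusted p = 0.014), or 0.79 (adjusted p = 0.053) without SQR 35 d replicate 2. With age in SQR, where its libraries at 28 d had 8746, 4701, 5335 and 7157 CPM, the difference was -1.16 (SE 0.30, adjusted p = 0.05), just over the threshold. It was called without SQR 28 d replicate 2 (-1.32, adjusted p = 0.028), without SQR 35 d replicate 3 (-1.48, adjusted p = 0.012) and without SRN39 28 d replicate 3 (-1.16, adjusted p = 0.045). Sobic.002G124700, the tenth, had 6519, 6129, 4606 and 5676 CPM in SRN39 at 28 d and 3267, 4186, 3239 and 2836 CPM at 35 d. These libraries did not overlap, and the fold change was -1.04 (SE 0.22, adjusted p = 0.0027). In SQR the same gene had 6238, 5488, 5388 and 6062 CPM at 28 d and 3302, 6636 and 4169.7 CPM at 35 d, with the libraries overlapping and a difference of -0.54 (SE 0.24, adjusted p = 0.19).

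Below the first 10, the largest falls with age in SRN39 among members whose libraries did not overlap were in Sobic.010G047100, rank 70, and Sobic.001G089100, rank 36. Sobic.010G047100 went from 1669, 1561, 1472 and 1645 CPM to 711, 606, 591 and 290.1 CPM, and from 2494, 1520.0, 1798 and 1993 CPM to 857, 1525 and 1318 CPM in SQR. Its log2 fold change was -1.79 (SE 0.28, adjusted p = 0.00038) in SRN39 and -0.89 (SE 0.31, adjusted p = 0.11) in SQR, where 1 library at 35 d lay above the lowest at 28 d. At 35 d SRN39 was below SQR in every library, with a log2 fold change of -1.13 (SE 0.30, adjusted p = 0.0071). Sobic.001G089100 had 3528, 3261, 2681 and 3744 CPM in SRN39 at 28 d and 1649, 1219, 1726 and 991 CPM at 35 d, a change of -1.51 (SE 0.29, adjusted p = 0.0012). In SQR its change was -0.60 (SE 0.31, adjusted p = 0.25), or -1.06 (adjusted p = 0.033) without SQR 35 d replicate 3.

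The largest rise with age was in Sobic.001G401300, rank 51, the 1 member found in the annotation searched here. That table matches it to the Arabidopsis PYR1-like 12 and to a rice pathogenesis-related Bet v I family protein. PYR1-like proteins are receptors of the hormone abscisic acid in Arabidopsis, and proteins of the Bet v I fold include pathogenesis-related proteins that bind small hydrophobic molecules. The study chose the list that annotates it on these samples, so its direction there is not independent. Its level was 1536, 1885, 1005 and 1024 CPM in SQR at 28 d, 4713, 1316 and 4272 CPM in SQR at 35 d, 201, 266, 458 and 233 CPM in SRN39 at 28 d and 1790.3, 1856, 1531 and 1548 CPM in SRN39 at 35 d. SRN39 at 28 d had the 4 lowest libraries of all, and the highest library was 23.4 times the lowest. SRN39 was below SQR with a log2 fold change of -2.17 (SE 0.36, adjusted p = 0.00026) at 28 d and of -1.06 (SE 0.37, adjusted p = 0.032) at 35 d, where SQR replicate 2 lay below all 4 SRN39 libraries. The call at 35 d was lost without SQR 35 d replicate 1 (adjusted p = 0.12) or 3 (adjusted p = 0.15) and without SRN39 35 d replicate 2 (adjusted p = 0.053), 3 (adjusted p = 0.069) or 4 (adjusted p = 0.076), and with the replicate number as a block (adjusted p = 0.11). The rise with age in SRN39 was 2.29 (SE 0.36, adjusted p = 0.00033). In SQR the age difference was 1.18 (SE 0.37, adjusted p = 0.079), or 1.60 (adjusted p = 0.021) without SQR 35 d replicate 2, and the age response of SRN39 minus that of SQR was 1.11 (SE 0.51, adjusted p = 0.19).

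Sobic.004G292900, rank 52, had the next largest rise in SRN39. Its libraries there went from 1135, 1269.5, 1321 and 1319 CPM at 28 d to 3217, 3183, 3678 and 2939.8 CPM at 35 d, while SQR held 820.5, 1950.5, 758 and 1218 CPM at 28 d and 1889, 629 and 455 CPM at 35 d. All 4 SRN39 libraries at 35 d were above every other library, and the SQR libraries at 35 d spread from 455 to 1889 CPM. The rise was 1.10 (SE 0.34, adjusted p = 0.023), with adjusted p = 0.056 both without SRN39 28 d replicate 1 and without SRN39 35 d replicate 3, and the genotype difference at 35 d was 1.76 (SE 0.39, adjusted p = 0.0021). Without SQR 35 d replicate 1 the age difference in SQR was -1.33 (adjusted p = 0.035), and that in SRN39 minus that in SQR was 2.43 (adjusted p = 0.002), against 1.56 (SE 0.51, adjusted p = 0.07) with all libraries. Sobic.004G295100, rank 34, rose from 1492, 1673, 1985 and 1682 CPM to 3704, 3502, 3683 and 3794 CPM in SRN39, by 0.84 (SE 0.22, adjusted p = 0.0082). At 35 d it was higher in SRN39 than in SQR by 1.00 (SE 0.24, adjusted p = 0.0034). Its age response in SRN39 less that in SQR was 0.85 (SE 0.32, adjusted p = 0.11), or 1.24 (adjusted p = 0.011) without SQR 35 d replicate 1.

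Few abundant transcripts were called for age in SQR. There, 3 members were called and all 3 were lower at 35 d, where 2.6% of all genes tested were called (1.07% higher and 1.53% lower), a share near that of the members. At an unadjusted p under 0.05 there were 35 members (23.1% of all genes tested), and DESeq2 called 16 (background 7.5%). With library totals the calls were 2 higher and 7 lower (background 2.7% and 1.14%), and with quantile normalization 1 higher and 4 lower (background 0.736% and 1.09%). The median member had a log2 fold change of -0.35, against 0.06 for all genes tested. Without SQR 35 d replicate 2, the median member fell by 0.22 on the log2 scale relative to all genes and 2 members were called, 1 of them in common, where 0.372% of all genes were called. The count was 29 without SQR 35 d replicate 3 (background 11.3%), all of them lower. It was 6 without SQR 28 d replicate 2 (background 4.42%) and 5 without SRN39 28 d replicate 3 (background 3.03%). It was 1 without SQR 28 d replicate 1 (background 0.827%), SQR 28 d replicate 4 (background 0.337%) or SRN39 28 d replicate 4 (background 1.27%). The mean share of the 100 members fell by 3.97 percentage points with age in SQR, with a change of -2.11 points in the first 6 members. Without SQR 35 d replicate 2 the share fell by 0.813 points, and the first 6 members gained 0.467.

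The 3 called members were Sobic.004G286600, Sobic.006G201400 and Sobic.002G057900. None of them was called with only the 2 SQR groups in the fit (adjusted p = 0.14, 0.2 and 0.23). Sobic.004G286600, rank 47, was at 3026, 2900.4, 5342 and 2662 CPM in SQR at 28 d and at 1482, 713 and 1410.0 CPM at 35 d. In SRN39 it was at 619, 929, 1199 and 1044 CPM at 28 d and at 1933, 1336, 1489 and 1542 CPM at 35 d. SQR at 28 d was above every other library, and the remaining groups lay closer together. Its age difference was -1.73 (SE 0.34, adjusted p = 0.017) in SQR, or -1.41 (adjusted p = 0.058) without SQR 35 d replicate 2, and 0.48 (SE 0.30, adjusted p = 0.23) in SRN39. The difference between those age differences was 2.21 (SE 0.45, adjusted p = 0.009), the largest of the set. At 28 d SRN39 was below SQR with a log2 fold change of -1.83 (SE 0.31, adjusted p = 0.00033), and at 35 d the difference was 0.38 (SE 0.32, adjusted p = 0.39). Sobic.002G057900, rank 40, had 2682, 2314, 2572 and 2889.8 CPM in SQR at 28 d and 1401, 1515 and 2021 CPM at 35 d, with no overlap. Its change of -0.86 (SE 0.22, adjusted p = 0.045) was called in only 3 of the 15 fits that left out 1 library, those without SQR 28 d replicate 2, SQR 35 d replicate 3 and SRN39 28 d replicate 3, and had an adjusted p of 0.051 to 0.13 in the other 12.

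Sobic.006G201400, rank 29, was called for age in both genotypes, in opposite directions. It stood at 3032, 1644, 1945 and 2579 CPM in SQR at 28 d, 851, 1786 and 1038 CPM in SQR at 35 d, 2523, 2467, 1876 and 2242 CPM in SRN39 at 28 d and 4287, 4669.7, 4719 and 4901 CPM in SRN39 at 35 d. The 4 SRN39 libraries at 35 d were the highest of all 15, and SQR at 35 d held the lowest, overlapping SQR at 28 d in 1 library. In SRN39 the age difference was 0.74 (SE 0.24, adjusted p = 0.028), and it was no longer called without SRN39 28 d replicate 3 (adjusted p = 0.073) or 4 (adjusted p = 0.064) or SRN39 35 d replicate 2 (adjusted p = 0.051) or 3 (adjusted p = 0.059). The change in SQR was -1.17 (SE 0.27, adjusted p = 0.035), and it was lost without SQR 28 d replicate 1 (adjusted p = 0.096) or 4 (adjusted p = 0.1), SQR 35 d replicate 1 (adjusted p = 0.099) or SRN39 28 d replicate 4 (adjusted p = 0.053). That call was also lost with the replicate number as a block (adjusted p = 0.097) and with limma-voom after quantile normalization (adjusted p = 0.053). The difference between both age differences was 1.91 (SE 0.36, adjusted p = 0.0065). It was called in each of the 15 fits that left out 1 library. At 35 d the genotype difference of 1.97 (SE 0.28, adjusted p = 4.1e-05) was the largest of the set, after 0.06 (SE 0.24, adjusted p = 0.91) at 28 d.

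**Figure D3:**
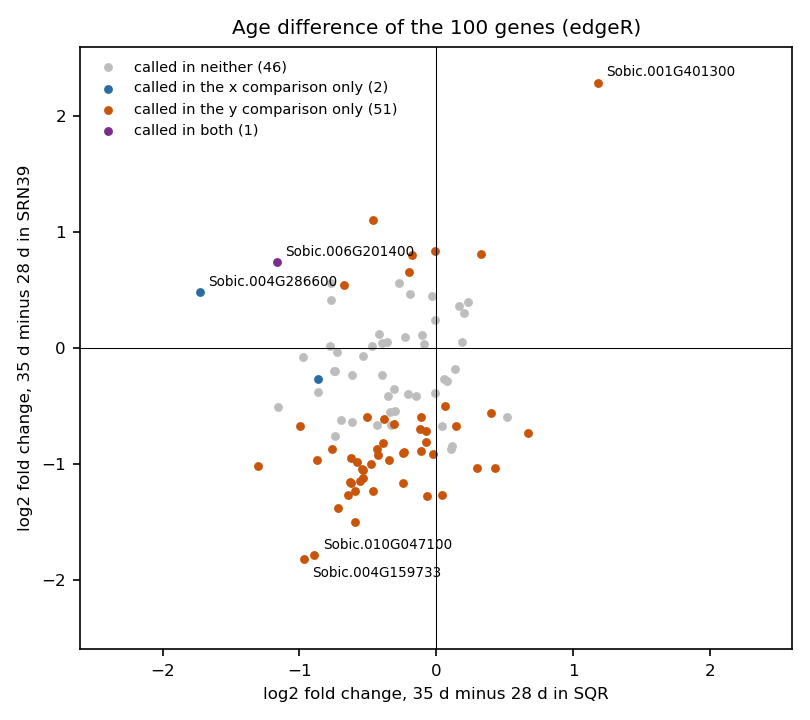
Each point is 1 of the 100 genes, placed by its log2 fold change from 28 d to 35 d in SQR (x axis) and in SRN39 (y axis), and colours mark in which genotype edgeR called it. Most points lie below the horizontal line, 51 genes were called in SRN39 alone, 2 in SQR alone and 1 in both.

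Of the 100 members, 59 had a negative age difference in both genotypes and 6 a positive one, and without SQR 35 d replicate 2 these counts were 49 and 10. Only 20 members had a positive difference in SQR and 27 in SRN39, so many shared falls follow from falls being frequent in each. Across the members the age differences of the genotypes had a Pearson r of 0.21. No share of all genes is given for these counts. The difference between the genotypes' age responses, SRN39 minus SQR, was called for 9 members, 4 positive and 5 negative, near the 7.34% of all genes tested (3.68% positive and 3.66% negative). The split was 9 positive and 5 negative with library totals (background 3.72% and 2.91%), 11 and 5 with quantile normalization (background 3.65% and 3.31%), and 11 and 8 with DESeq2 (background 5.28% and 5.71%). Being called in SRN39 and not in SQR was therefore in most members not accompanied by a called difference between them. The count was 16 without SQR 35 d replicate 2 (background 8.69%) and 4 without SQR 28 d replicate 4 (background 4.54%). There were 5 without SQR 28 d replicate 3, SRN39 28 d replicate 1, 2 or 4, or SRN39 35 d replicate 2, where 4.71% to 6.13% of all genes were called.

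With all 4 groups in the fit, few of these transcripts were called for genotype at 28 d. At that age 7 members were called, 5 higher and 2 lower in SRN39, where 17.4% of all genes tested were called (8.65% higher and 8.74% lower). The 7 of 100 stood below the share of the table, and DESeq2 called 13, 11 higher and 2 lower (background 10.2% and 9.28%). The median member had a log2 fold change of 0.16, against -0.04 for all genes tested. The count was 17 without SQR 35 d replicate 2, where 20.8% of all genes were called, and 3 without SQR 28 d replicate 1 (background 14.6%) or SRN39 28 d replicate 2 (background 14.1%). With quantile normalization the split turned to 2 higher and 7 lower (background 8.92% and 7.94%), and with library totals it was 5 higher and 4 lower (background 7.26% and 9.15%). The mean share of the set differed by 0.736 percentage points, with 58 members higher and 42 lower in SRN39.

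Besides Sobic.001G401300 and Sobic.004G286600, which were lower in SRN39, the calls at 28 d included Sobic.006G194300, Sobic.002G349400 and Sobic.003G373100, which were higher. Sobic.006G194300, rank 91, had 1991, 2206, 1349 and 1335 CPM in SRN39 and 558, 725, 1009 and 791 CPM in SQR. No library overlapped, and the difference was 1.24 (SE 0.24, adjusted p = 0.0011). At 35 d it had 1316, 1201, 859 and 1172 CPM in SRN39 and 800.4, 861 and 826 CPM in SQR, a difference of 0.47 (SE 0.26, adjusted p = 0.17), with a change with age in SRN39 of -0.89 (SE 0.24, adjusted p = 0.011). For Sobic.003G373100, rank 80, the levels at 28 d were 1629, 1888, 1345 and 1486 CPM in SRN39 and 642, 1139, 990.1 and 1215 CPM in SQR. Its difference of 0.77 (SE 0.22, adjusted p = 0.02) was lost without SQR 28 d replicate 1 (adjusted p = 0.067) and without SRN39 28 d replicate 1 (adjusted p = 0.051) or 2 (adjusted p = 0.073).

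Sobic.002G349400, the seventh most abundant, was among the genes that were higher in SRN39 at 28 d and fell there with age. It was measured at 4015, 7294, 5962 and 4972 CPM in SQR at 28 d, 6469, 12121 and 5718 CPM in SQR at 35 d, 9656, 12497, 8728 and 9902 CPM in SRN39 at 28 d and 6389, 5956, 7760.1 and 3836 CPM in SRN39 at 35 d. SRN39 at 28 d lay above SQR at 28 d and above SRN39 at 35 d in every library, and the highest SQR value was that of SQR 35 d replicate 2. The genotype difference at 28 d was 0.97 (SE 0.27, adjusted p = 0.017), and it was lost without SQR 28 d replicate 1 (adjusted p = 0.06) or 4 (adjusted p = 0.052) and without SRN39 28 d replicate 2 (adjusted p = 0.063). The fall with age in SRN39 was -1.03 (SE 0.27, adjusted p = 0.009). The difference between age responses, -1.33 (SE 0.39, adjusted p = 0.049), was called in only 4 of the 15 fits that left out 1 library, those without SQR 35 d replicate 1 or 3 or without replicate 3 of either SRN39 group. In the other 11 the adjusted p was 0.054 to 0.099. With quantile normalization the fall in SRN39 was -0.25 (adjusted p = 0.66).

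With all 4 groups in the fit, more members were called for genotype at 35 d than at 28 d. At 35 d, 34 members were called, 18 higher and 16 lower in SRN39, where 35.6% of all genes tested were called (16.3% higher and 19.4% lower). The number of calls was thus near that of the table, and the median member had a log2 fold change of -0.08, against -0.06 for all genes tested. Of the 34, 19 differed by more than 2-fold, and 17 were called in each of the 15 fits that left out 1 library. The matching shares of all genes are not given, so these counts do not set the members apart. The median absolute log2 fold change was 0.43 in the members and 0.54 in all genes tested. Without SQR 35 d replicate 2 there were 40 calls (background 34.8%), 15 higher and 25 lower (background 16.2% and 18.6%), and 28 of the 34 were among them. Without SQR 35 d replicate 3 the split leaned the other way, with 27 calls (background 31.1%), 21 higher and 6 lower (background 14.1% and 16.9%). The mean share of the set was nearly equal in both genotypes at 35 d, with a difference of -0.0638 percentage points, the sum of 5.91 and -5.97 points. Without SQR 35 d replicate 2 the difference was -3.22 points, and that of the first 6 members was -3.24 points.

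**Figure D4:**
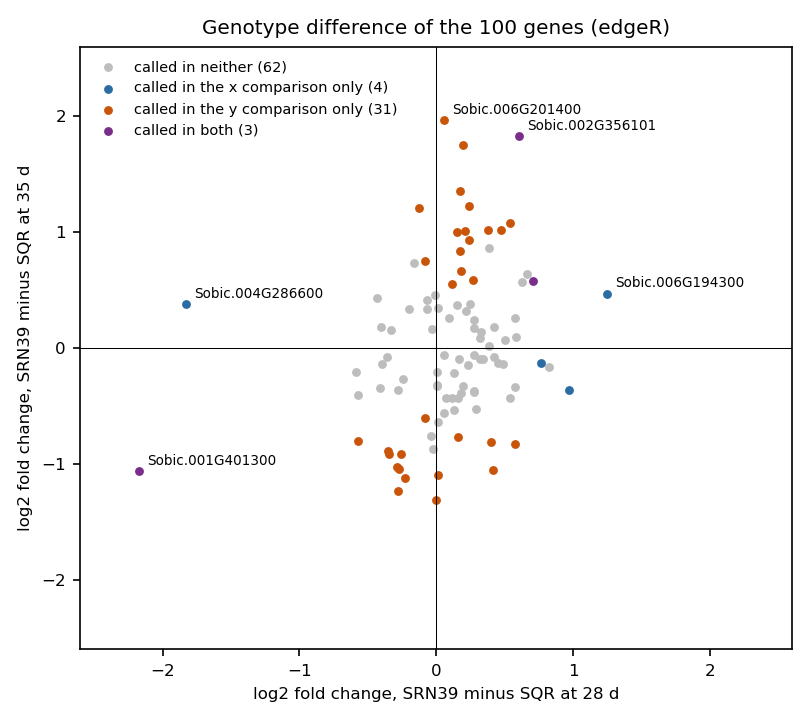
Each point is 1 of the 100 genes, placed by its log2 fold change of SRN39 minus SQR at 28 d (x axis) and at 35 d (y axis), and colours mark at which age edgeR called it. The points run from -2.17 to 1.24 along the x axis and from -1.31 to 1.97 along the y axis, and 31 genes were called at 35 d alone, 4 at 28 d alone and 3 at both ages.

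The 3 members called at both ages kept their direction. Sobic.001G401300 was lower in SRN39 at both, and Sobic.002G356101 and Sobic.004G238100 were higher at both. Sobic.002G356101, rank 58, stood at 1132, 1070.4, 919.7 and 1394 CPM in SQR at 28 d, 662, 918 and 872 CPM in SQR at 35 d, 1711, 1691, 1307 and 1763 CPM in SRN39 at 28 d and 2673, 2463, 3386 and 2967 CPM in SRN39 at 35 d. At each age the SRN39 libraries lay above those of SQR apart from the overlap between 1307 and 1394 CPM at 28 d. The difference was 1.83 (SE 0.23, adjusted p = 1.4e-05) at 35 d. At 28 d it was 0.60 (SE 0.20, adjusted p = 0.048), and it was called in only 6 of the 15 fits that left out 1 library, those without SQR 28 d replicate 4, any 1 library of SQR at 35 d, or replicate 3 of either SRN39 group. In the other 9 the adjusted p was 0.054 to 0.13. The age response of SRN39 minus that of SQR was 1.22 (SE 0.30, adjusted p = 0.022), and 1.11 (adjusted p = 0.051) without SQR 28 d replicate 4. Within SRN39 its age difference of 0.55 (SE 0.20, adjusted p = 0.049) was called in only 5 of these fits, those without SQR 28 d replicate 4, any 1 library of SQR at 35 d, or SRN39 35 d replicate 2, and had an adjusted p of 0.054 to 0.15 in the other 10. Sobic.004G238100, rank 57, had 1742, 2049, 1421 and 1611 CPM in SRN39 and 898, 1280.5, 1242 and 1018 CPM in SQR at 28 d. At 35 d the levels were 1610.0, 2486, 2030.3 and 2578 CPM in SRN39 and 1752, 1691 and 1017 CPM in SQR. Its libraries did not overlap at 28 d and overlapped at 35 d. The difference at 28 d was 0.71 (SE 0.20, adjusted p = 0.019), lost without SQR 28 d replicate 1 (adjusted p = 0.06) or 4 (adjusted p = 0.055) or SRN39 28 d replicate 2 (adjusted p = 0.074). That at 35 d was 0.58 (SE 0.22, adjusted p = 0.047), called in only 6 of the 15 fits, those without SQR 28 d replicate 1 or 3, SQR 35 d replicate 1, SRN39 28 d replicate 2 or 3 or SRN39 35 d replicate 1, with an adjusted p of 0.053 to 0.17 in the other 9.

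Sobic.004G162000, rank 48, was lower in SRN39 at 35 d, and its age responses differed most in the negative direction. It was at 1604, 1744, 1725 and 1187 CPM in SQR at 28 d, 2517, 2780.3 and 2108 CPM in SQR at 35 d, 1743, 1951, 2431 and 1827 CPM in SRN39 at 28 d and 1458, 1219, 1038 and 916 CPM in SRN39 at 35 d. At 35 d the SRN39 libraries were all below those of SQR, whereas at 28 d the ranges overlapped. The genotype difference was -1.05 (SE 0.21, adjusted p = 0.00088) at 35 d and 0.41 (SE 0.19, adjusted p = 0.17) at 28 d. With age it changed by -1.03 (SE 0.20, adjusted p = 0.0012) in SRN39 and by 0.43 (SE 0.21, adjusted p = 0.23) in SQR, and the difference between them was -1.46 (SE 0.29, adjusted p = 0.0072). Sobic.001G141300, rank 20, was also lower in SRN39 at 35 d, at 1901, 1771, 1885 and 1934 CPM against 3639, 3432 and 4506 CPM in SQR, with a difference of -1.05 (SE 0.21, adjusted p = 0.00091). It had 3555, 3071, 3637 and 4359 CPM in SRN39 at 28 d, a change with age of -1.24 (SE 0.20, adjusted p = 0.00038), and 5019.7, 4597, 3816 and 5171 CPM in SQR at 28 d. In SQR its age difference was -0.46 (SE 0.21, adjusted p = 0.2), or -0.70 (adjusted p = 0.043) without SQR 35 d replicate 3. Its age responses differed by -0.77 (SE 0.28, adjusted p = 0.11), or by -0.93 (adjusted p = 0.038) without SQR 35 d replicate 2.

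Sobic.005G112800, the ninth most abundant, had 5138, 10892 and 5098 CPM in SQR at 35 d and 4329.9, 3866, 4124 and 2781 CPM in SRN39 at 35 d. The highest value was that of SQR replicate 2, and every SQR library exceeded every SRN39 library. The genotype difference was -0.83 (SE 0.25, adjusted p = 0.015), and -0.50 (adjusted p = 0.094) without SQR 35 d replicate 2. At 28 d SQR had 3373, 4652, 3734 and 3091 CPM and SRN39 4357, 5199, 6142 and 5325 CPM, with a difference of 0.58 (SE 0.23, adjusted p = 0.1), or 0.58 (adjusted p = 0.036) without SQR 35 d replicate 2. The age difference was -0.73 (SE 0.23, adjusted p = 0.024) in SRN39 and 0.67 (SE 0.25, adjusted p = 0.12) in SQR, and the first was lost at adjusted p = 0.056 without SRN39 28 d replicate 2 or 4 or SRN39 35 d replicate 2, and at adjusted p = 0.079 without SRN39 35 d replicate 4. Scaled on library totals it was -0.48 (adjusted p = 0.12). The difference between the age responses was -1.40 (SE 0.34, adjusted p = 0.02).

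**Figure D5:**
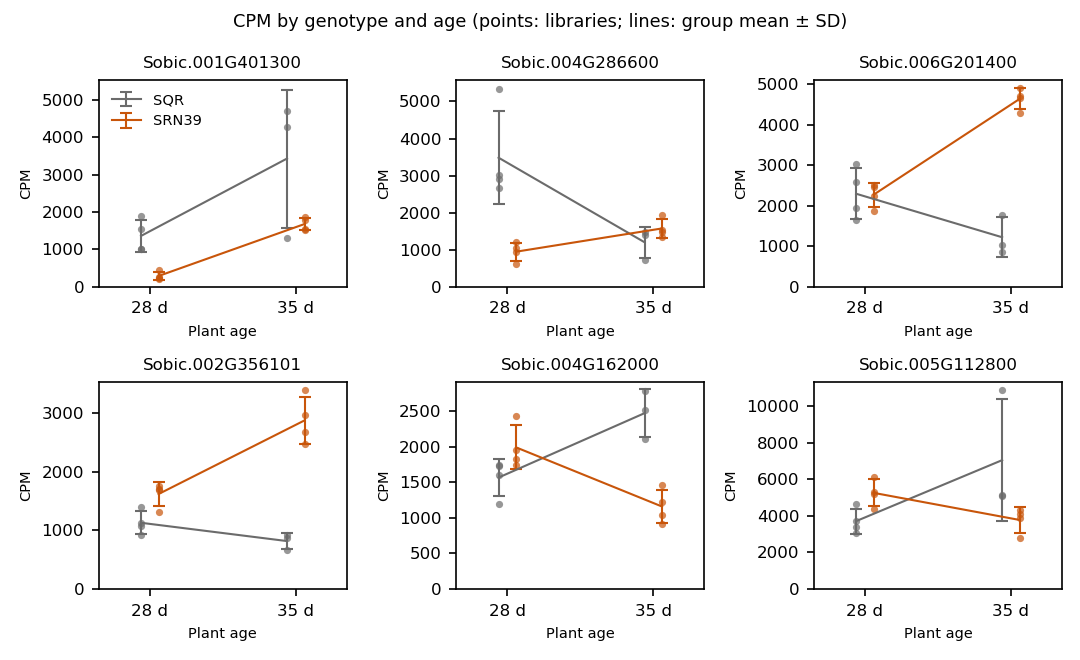
CPM is plotted against plant age for 6 genes, with a point for each library and lines joining group means ± SD (SQR n = 4 at 28 d and 3 at 35 d, SRN39 n = 4 at each age). Sobic.006G201400 reaches 4287 to 4901 CPM in SRN39 at 35 d and 851 to 1786 CPM in SQR, and the lines of Sobic.004G162000 cross.

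Some members were called both for age in SRN39 and for genotype at 35 d. Of those called lower with age in SRN39, 12 were also called lower in SRN39 than in SQR at 35 d, among them Sobic.008G185900, Sobic.005G112800 and Sobic.001G141300. Of those called higher with age in SRN39, 5 were also called higher than in SQR at 35 d, among them Sobic.006G201400, Sobic.004G295100, Sobic.004G292900 and Sobic.002G356101. Both comparisons use the SRN39 libraries at 35 d, so some overlap follows from that, and these counts are a description. The matching shares of all genes are not given, so the counts do not set the members apart from the table. In all, 30 members were called in no comparison, again with no share of all genes to set beside it. The genes that follow were picked with their values in view. Sobic.010G041600 was the most even across groups, its highest group mean being 1.10 times its lowest, and Sobic.007G014700 across libraries, its highest library being 1.48 times its lowest. Of the adjacent Sobic.004G050000 and Sobic.004G049900, the first rose with age in SRN39, from 1348, 1293, 1281 and 1272 CPM to 2542, 2878, 2308 and 2192 CPM, with a log2 fold change of 0.66 (SE 0.18, adjusted p = 0.011). The second had 1636, 1683, 1456 and 1439 CPM and 2156, 2278, 1912 and 1776 CPM, and its libraries did not overlap either, but the fold change was 0.11 (SE 0.18, adjusted p = 0.66), or 0.39 (adjusted p = 0.041) when scaled on library totals.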

How the data were processed

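Gene counts came from 3′ mRNA-Seq libraries of whole roots. According to the study's methods, the authors pooled technical replicates, trimmed the reads and aligned them to the BTx623 reference with STAR, allowing up to 20 mapping positions and counting reads per gene. The deposited values are these raw counts. Versions, annotation and strand setting were not stated in the sources used here. Both varieties were mapped to a reference of another variety, and what this does to single genes was not tested. Of the table's columns 15 matched a labelled sample, and 1 other column, whose name has the form of a further SQR replicate at 35 d but matched no labelled sample, was not used. No further library was left out.

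Levels are CPM of library totals, with SD over libraries. Differences were fitted in R 4.3.3 with edgeR 4.0.16 (quasi-likelihood F-test, two-sided, TMM, genes over 1 CPM in at least 3 libraries, 1 coefficient for each of the 4 groups, Benjamini-Hochberg adjustment over all 18473 genes). The standard error is the absolute log2 fold change divided by the square root of F. The fit was run on simulated data with fewer changed genes than were called in any comparison here and no library that stood apart. That run therefore does not show how reliable these calls are. Alternatives were DESeq2 1.42.0, limma 3.58.1 (voom after quantile normalization, the study's approach), RLE factors, library totals, scaling on genes outside the set, no filter, only the groups compared, the replicate number as a block, each library left out, an adjusted p under 0.01, and members chosen by median CPM or by TMM-scaled averages.

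The named genes are the first 10, the 3 largest called rises and falls of each comparison with no overlap of libraries (overlap allowed for the difference between age responses), annotated members, and the genes at the limit; others named were chosen after their values were seen. The members and these lists were chosen with earlier results of these data known.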

Additional observations from a re-analysis of the deposited data

Results flagged for a closer look

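In groups of 4, a library was marked when its gap to the nearest other library took up more of the group's range than is usual for 4 values. Chance marks about 5% of groups, and 3 of the 81 groups tested were marked. Sobic.004G286600 had 5342 CPM in SQR 28 d replicate 3, above the other libraries of its group. Sobic.002G356101 had 1307 CPM in SRN39 28 d replicate 3, below its group. Sobic.008G185900 had 10423 CPM in SRN39 35 d replicate 3, below its group.

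For 6 of the named genes the change with age differed between the genotypes by the test of that difference in edgeR. The log2 age response of SRN39 minus that of SQR was 2.21 for Sobic.004G286600, 1.91 for Sobic.006G201400 and 1.22 for Sobic.002G356101. It was -1.46 for Sobic.004G162000, -1.40 for Sobic.005G112800 and -1.33 for Sobic.002G349400.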

How the results depend on the processing

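Of 2964 values recomputed for the 26 named genes, 2770 kept their side of the threshold, of which 77, all of values not called with all libraries, had another sign. A further 124 lost and 69 gained a call, and 1 more gained a call with another sign. That was the genotype difference of Sobic.008G136000 at 28 d, near no difference and not called in the main fit. It was -0.37 (adjusted p = 0.046) with limma-voom after quantile normalization, so no called difference reversed. The 2770 include values never called with all libraries, so that count does not measure how stable the calls were. Over all members, calls held in each of the 15 fits that left out 1 library for 3 of 7 for genotype at 28 d and 17 of 34 at 35 d. They held for 0 of 3 for age in SQR, 35 of 52 for age in SRN39 and 4 of 9 for the difference between age responses. The matching shares of all genes are not given, so these counts do not compare the members with the table. The number of members called for genotype at 28 d was 13 with DESeq2, 17 with only the groups compared and 3 at an adjusted p under 0.01. For genotype at 35 d it was 21 with only the groups compared (background 28.0%) and 17 at the stricter threshold. For age in SQR it was 16 with DESeq2 (background 7.5%) and 5 with limma-voom (background 1.82%). It was 9 with library totals (background 3.84%) and 5 with no filter (background 2.5%). There edgeR gave 0 with only the groups compared (background 0.0595%) and 0 at the stricter threshold. At an unadjusted p under 0.05 with all groups it gave 35 members (23.1% of all genes). For age in SRN39 it was 30 at the stricter threshold. For the difference between age responses it was 19 with DESeq2 (background 11.0%) and 16 with limma-voom (background 6.96%). It was 14 with library totals (background 6.64%) and 3 at the stricter threshold. The shares of all genes at the stricter threshold are not given, so those counts do not set the members apart from the table. That difference was not run with only the groups compared. Leaving out 1 library gave 3 to 17, 24 to 40, 1 to 29, 37 to 65 and 4 to 16 calls, in the order above. For genotype at 35 d the background was 29.8% in the fit with 24 calls and 34.8% in that with 40. For age in SRN39 it was 22.1% in the fit with 37 calls and 36.6% in that with 65. The mean share of the 10 highest members was 14.3% in SQR at 28 d, 12.3% in SQR at 35 d, 15.02% in SRN39 at 28 d and 11.3% in SRN39 at 35 d, and that of the 50 highest was 25.8%, 22.1%, 26.2% and 21.9%. Leaving out 1 library moved the share of all 100 to between 31.8% and 33.0%, 26.2% and 31.6%, 32.6% and 33.9%, and 27.7% and 28.9%.

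Deviations of same-numbered libraries had correlations of -0.22 to 0.17, and those of other pairs -0.36 to 0.43. Same-numbered libraries were thus not seen to be more alike. With 3 or 4 libraries a group, these correlations cannot exclude a shared batch behind the number. With the replicate number as a block, 6 members were called for genotype at 28 d (15.7% of all genes), 25 at 35 d (29.8%), 1 for age in SQR (0.558%), 47 for age in SRN39 (27.2%) and 4 for the difference between age responses (3.85%). With 3 or 4 libraries a group, and SQR at 35 d resting on 3 libraries of which 1 stands apart, small differences were not detectable. The cause of these shifts was not tested.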
